A study of Mus musculus with 3 samples.

Results

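Expression of 10 genes of the mouse fat cell was followed: Fabp4, Adipoq, Retn, Cfd, Lep, Plin1, Cidec, Pparg, Lpl and Thrsp. Probe rows were taken by the gene symbol of the platform annotation, which gave 11 of 38976 probe rows and 9 of 15056 named genes. Cfd, the serine protease adipsin, had no probe row under its symbol and was not analysed here. Of the 9 measured genes, 8 rested on 1 probe and Pparg on 3. The set was chosen by gene symbol with the ratios of these same arrays in view, Fabp4 having been picked for its high ratio, so the values of the 9 genes are a description and carry no test.

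The data were 3 two-channel arrays. In channel 1 (Cy5) was RNA of an outgrowth of primary MMTV-PyMT carcinoma cultures that carried GATA-3 in the retroviral vector PMIG, and in channel 2 (Cy3) RNA of an outgrowth that carried the empty vector. Both tumors thus share the MMTV-PyMT transgene, in which a mammary tumor virus promoter drives a viral oncogene in mammary epithelium, and a vector with an IRES-GFP cassette. Cultured cells had been put back into cleared fat pads of wild-type hosts and the outgrowths taken after 6 weeks. A cleared pad lacks its own epithelium and keeps its fat and stroma, so host adipocytes can enter a sample. The sources used here do not give the age or strain of the animals, nor whether each array held RNA of other animals. Every value below is a log2 ratio, read as the GATA-3 outgrowth over the vector outgrowth with each array's median set to 0. That direction and the base 2 are likely but not stated by the sources; with the opposite direction every sign would turn. Arrays are numbered as names only, and the title of array 1 has another prefix than those of arrays 2 and 3. A ratio does not show whether a transcript was present at a high or a low level in either tumor. The dyes were never swapped, so that dye bias and a difference between the tumors cannot be told apart for any probe.

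White adipocytes form from progenitors under C/EBP factors and the nuclear receptor PPARγ, which binds DNA as a pair with a retinoid X receptor. The mature cell takes up fatty acids released by lipoprotein lipase, carries them on FABP4, stores them in a droplet coated by perilipin 1 and secretes adiponectin, leptin, resistin and adipsin. In cultured mouse preadipocytes GATA-2 and GATA-3 are known to restrain this conversion. The mammary gland grows within such fat, and outside adipocytes FABP4 is known in macrophages and capillary endothelium.

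The 250 bases before the annotated start are shown for 4 members that span the range of the ratios: Retn (high), Adipoq and Pparg (near 0) and Thrsp (low). Sequences are from RefSeq, build GRCm38.p6, written 5′ to 3′ on the gene's strand. Capitals mark the letters AGGTCA, the half-site read by PPARγ and other nuclear receptors, or GATAA, a core read by GATA factors, on either strand (TGACCT and TTATC on the other); the motifs shared no base here.
Retn, chr8:3655520-3655769, plus strand: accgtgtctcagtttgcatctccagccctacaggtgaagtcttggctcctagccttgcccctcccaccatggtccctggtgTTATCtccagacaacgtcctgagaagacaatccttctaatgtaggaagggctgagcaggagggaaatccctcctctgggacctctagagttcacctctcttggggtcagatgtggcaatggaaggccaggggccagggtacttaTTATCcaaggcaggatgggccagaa
Adipoq, chr16:23146286-23146535, plus strand: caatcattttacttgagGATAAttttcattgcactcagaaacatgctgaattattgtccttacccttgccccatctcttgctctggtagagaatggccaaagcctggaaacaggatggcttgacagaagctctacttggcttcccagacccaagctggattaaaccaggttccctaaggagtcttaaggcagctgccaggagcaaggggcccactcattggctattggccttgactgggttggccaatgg
Pparg, chr6:115362099-115362348, plus strand: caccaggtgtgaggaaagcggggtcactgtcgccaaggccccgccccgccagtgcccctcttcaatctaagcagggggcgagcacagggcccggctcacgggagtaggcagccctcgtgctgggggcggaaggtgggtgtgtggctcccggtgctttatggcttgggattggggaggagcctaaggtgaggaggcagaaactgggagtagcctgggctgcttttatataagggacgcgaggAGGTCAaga
Thrsp, chr7:97417551-97417800, minus strand: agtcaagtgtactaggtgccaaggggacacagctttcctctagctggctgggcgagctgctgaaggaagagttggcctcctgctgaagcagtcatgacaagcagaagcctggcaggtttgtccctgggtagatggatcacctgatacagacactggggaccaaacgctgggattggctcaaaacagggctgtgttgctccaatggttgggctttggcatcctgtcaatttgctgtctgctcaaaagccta
Of the 10 genes, 8 matched the RefSeq promoter table, with 11 windows; Fabp4 and Lpl had no entry. GATAA was found in Retn (2 matches) and Adipoq (1 match), and in 22.6% of all 32851 windows of this length. AGGTCA was found in 2 of the 3 Pparg windows and in no other member, and in 14% of all windows. The Pparg window shown is 1 of these 2, while the Pparg window at chr6:115421816-115422065, not shown, held neither motif. A match is a run of letters and not a measured site. The 2 members with GATAA had unlike ratios. Thrsp held neither motif in this window, and nor did Lep, Plin1, Cidec and Cfd in theirs. Nothing about the ratios is read from the matches.

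Fabp4 had the highest ratio of the set on every array. It gave 1.76, 2.01 and 1.74 on arrays 1, 2 and 3, a mean of 1.84 ± 0.15 (SD, n = 3) or 3.58-fold. All 3 arrays were far above 0 and above every array value of the other members. The mean ranked 2 of 15056 named genes, with ranks 4, 22 and 6 on arrays 1, 2 and 3. In such bulk RNA, a difference in the number of cells of a type and one in RNA per cell cannot be told apart.

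**Figure D1:**
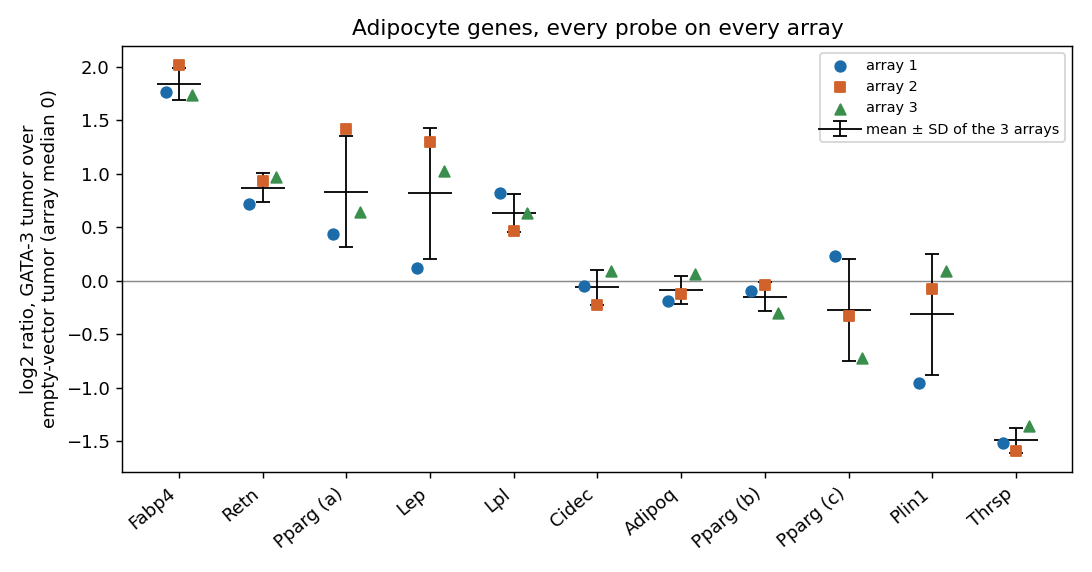
Log2 ratio (vertical axis) of every probe of the 9 measured adipocyte genes (horizontal axis, ordered by mean) on arrays 1 to 3 (symbols), with the mean ± SD as black bars. Fabp4 stands at 1.74 to 2.01, Thrsp at -1.59 to -1.36, and the 3 Pparg probes (a, b, c) have means of 0.83, -0.15 and -0.27.

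The secreted products did not share a level. Resistin (Retn), a hormone of mouse fat cells, gave 0.72, 0.93 and 0.97, a mean of 0.87 ± 0.14 or 1.83-fold. Leptin (Lep), the satiety hormone, gave 0.12, 1.30 and 1.02, a mean of 0.82 ± 0.61 or 1.76-fold. Resistin was thus positive on all arrays within a narrow range, and leptin was close to 0 on array 1 and high on arrays 2 and 3. Adiponectin (Adipoq), an abundant adipocyte hormone, gave -0.19, -0.13 and 0.06, a mean of -0.09 ± 0.13. Within an array, Fabp4 exceeded Adipoq by 1.96, 2.14 and 1.68 on the log2 scale. Leptin exceeded adiponectin by 0.32, 1.43 and 0.97.

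The droplet proteins were near or below 0. Perilipin 1 (Plin1), which coats the adipocyte droplet and gates its lipases, gave -0.96, -0.07 and 0.09, a mean of -0.31 ± 0.57. Cidec, which promotes droplet fusion and growth, gave -0.05, -0.23 and 0.09, a mean of -0.06 ± 0.16. Plin1 was thus well below 0 on array 1 and near 0 on arrays 2 and 3, and its mean was 0.01 without array 1. The ranges of Plin1, Cidec and Adipoq overlapped.

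Lpl, the lipase that frees fatty acids from circulating lipoproteins, gave 0.82, 0.46 and 0.63, a mean of 0.64 ± 0.18 or 1.55-fold. Thrsp (Spot 14), a protein linked to fatty acid synthesis in fat, liver and lactating mammary gland, gave -1.52, -1.59 and -1.36, a mean of -1.49 ± 0.12 or 2.81-fold lower. Lpl and Thrsp lay on opposite sides of 0 on every array. Thrsp ranked 23 from the bottom of 15056 named genes. The difference between Fabp4 and Thrsp was 3.33 ± 0.25 (SD, n = 3) on the log2 scale.

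Pparg, the regulator of the program, had 3 probes that did not move together. The first probe gave 0.43, 1.42 and 0.65, with a mean of 0.83 ± 0.52. The second gave -0.10, -0.04 and -0.30, with a mean of -0.15 ± 0.14. The third gave 0.23, -0.33 and -0.72, with a mean of -0.27 ± 0.48. One probe was therefore positive on all arrays, one negative on all, and one of mixed sign. Averaged, the gene gave 0.19, 0.35 and -0.13, a mean of 0.14 ± 0.24; the median of its probes gave -0.04. Which part of the transcript each probe reads was not analysed here. For comparison, all probes had 1 sign of mean ratio in 31 of 63 other genes of the lists below that had at least 2 probes.

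Ordered by mean ratio, the genes ran Fabp4, Retn, Lep, Lpl, Pparg, Cidec, Adipoq, Plin1, Thrsp. Of the 8 gaps in this order, 3 lay beyond the range of the arrays: Fabp4 over Retn (0.97), Lpl over Pparg (0.50) and Plin1 over Thrsp (1.18). The array values of all other neighbours overlapped, so Retn, Lep and Lpl were not separated, nor were Pparg, Cidec, Adipoq and Plin1. Only neighbours were compared, and these groups overlapped too: on array 1 Lep (0.12) lay below Pparg (0.19). The gap of Lpl over Pparg holds for averaged probes only, as the first Pparg probe had a mean of 0.83 and Lpl one of 0.64.

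**Figure D2:**
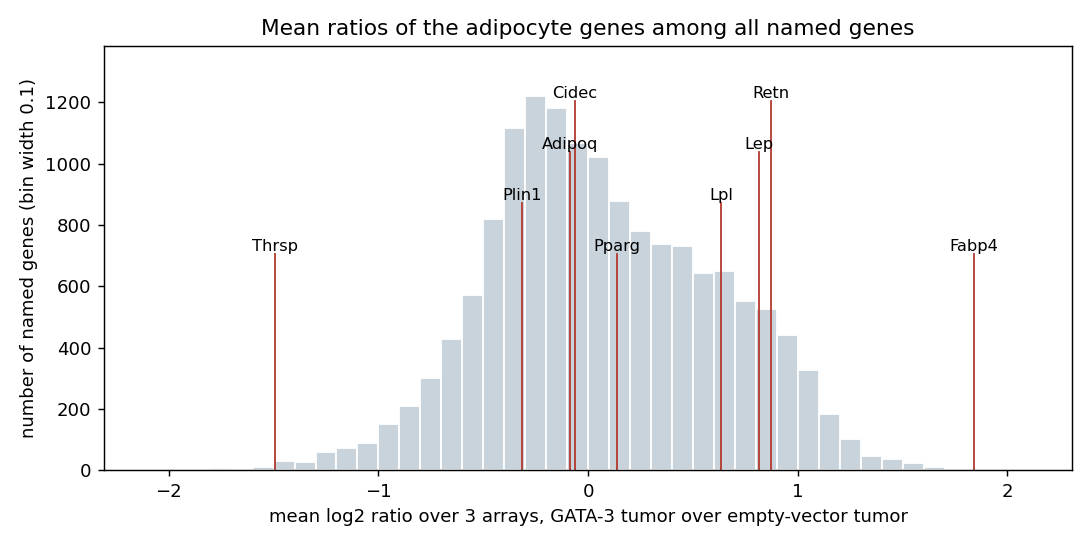
Histogram of the mean log2 ratio over 3 arrays for 15056 named genes (bars, bin width 0.1), with a red line at each of the 9 adipocyte genes. Fabp4 (1.84) and Thrsp (-1.49) lie in the outer tails and the other 7 between -0.31 and 0.87.

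Across all 31059 rows (named genes and 16003 unnamed probes), 55.8% passed limma's test against 0 at an adjusted p under 0.05, 31.7% on the positive side and 24.1% on the negative. Of the 9 genes, 5 passed (55.6%): Fabp4, Retn, Lep and Lpl on the positive side and Thrsp on the negative. With a mean of at least 1 in size as well, 2 of 9 passed, Fabp4 and Thrsp, against 7.37% of all rows. All 3 arrays had 1 sign for 5 of 9 genes, against 76.4% of all rows. Because this contrast was in view when the set was chosen, nothing is read from these shares. The median ratio of the 9 genes was 0.14, beside 0.02 over all named genes, and was -0.04 with the median of the Pparg probes. Lep lost its place among the 5 without array 2 (0.57) and without array 3 (0.71).

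Array 1 differed from arrays 2 and 3 for a pair of members. Lep was lower on array 1 than the mean of the other arrays by 1.04 (difference -1.04), and Plin1 by 0.97 (difference -0.97). Their SDs over the arrays stood at the 97.8 and 97.0 percentile of those of all named genes. For the other 7 genes, with probes averaged, the same difference lay between -0.23 (Retn) and 0.27 (Lpl). Averaging hid opposite shifts of single Pparg probes. The first gave 0.43 on array 1 against 1.42 and 0.65 on arrays 2 and 3. The third gave 0.23 against -0.33 and -0.72. Whether the title prefix marks a print run, a hybridization or other animals is not stated, and its part in these values was not tested.

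**Figure D3:**
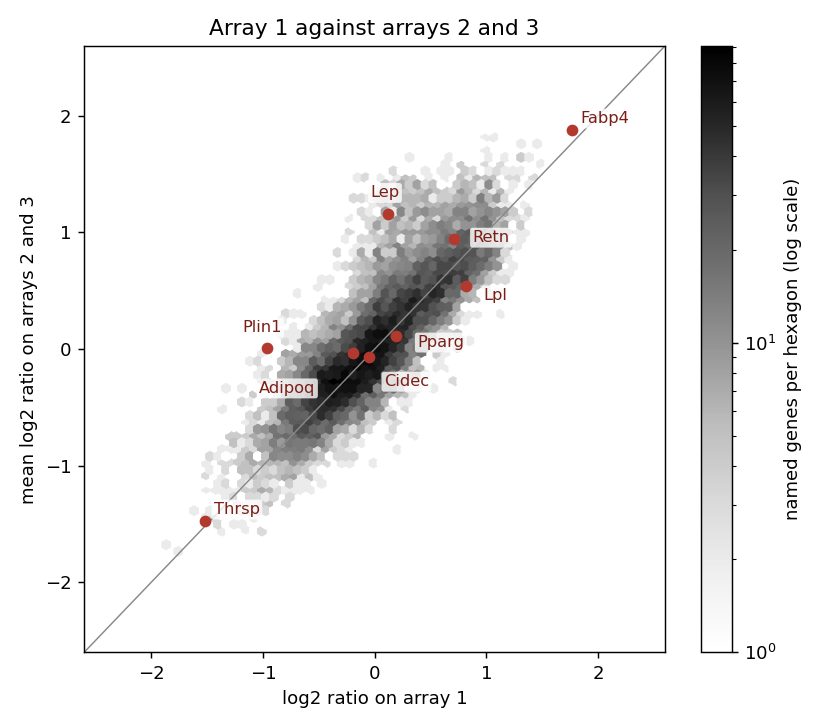
Log2 ratio on array 1 (horizontal axis) against the mean log2 ratio on arrays 2 and 3 (vertical axis); grey hexagons count named genes on a log scale, red points are the 9 adipocyte genes and the line marks equal values. Lep and Plin1 lie about 1 above the line, and Fabp4 and Thrsp lie near it at opposite ends.

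Fabp4 belongs to a family of small intracellular lipid carriers. Of 11 other measured genes of the family, 4 rose (36.4%), 3 fell (27.3%) and 4 did not pass the test, shares near the 31.7% and 24.1% of all rows and so no result about the family. Fabp5, the epidermal form also made in fat cells and macrophages, gave 0.40, 1.41 and 0.98, a mean of 0.93 ± 0.50 with both probes positive (0.64 and 1.22; limma, adjusted p = 0.014). Brain Fabp7 rose by 0.88 ± 0.21, ileal Fabp6 by 0.45 ± 0.16 and heart Fabp3 by 0.33 ± 0.09. Fabp9, a testis form, was lower at -1.34 ± 0.33 (limma, adjusted p = 0.00307), as were the retinoid carriers Rbp7 (-0.49 ± 0.23) and Crabp2 (-0.36 ± 0.17). Liver Fabp1 (0.57 ± 0.66), intestinal Fabp2 (0.33 ± 0.24), Crabp1 (0.34 ± 0.35) and Fabp12 (-0.16 ± 0.15) did not pass. Leaving out array 1, Fabp1, Fabp2 and Crabp1 passed on the positive side. In RefSeq's order of protein-coding genes on chromosome 3, Fabp9 and Fabp12 are the genes on either side of Fabp4, and Fabp5 is 3 places away. Fabp4's own lowest array value, 1.74, lay above every array value of these genes with probes averaged, while a single Fabp5 probe reached 1.85 on array 2. Because Fabp4 was picked for its high ratio, nothing is read from its place above the family. Without array 3, Fabp5 (0.91, adjusted p = 0.07), Fabp3 (0.33, 0.141), Fabp6 (0.48, 0.0812) and Crabp2 (-0.39, 0.125) lost the call by limma. Without array 2, Fabp3 (0.28, 0.127), Crabp2 (-0.43, 0.0536) and Rbp7 (-0.41, 0.0782) did. The positive count was 7 without array 1 and 1 without array 3. Probe sequences were not used here, and cross-hybridization within the family was not tested.

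**Figure D4:**
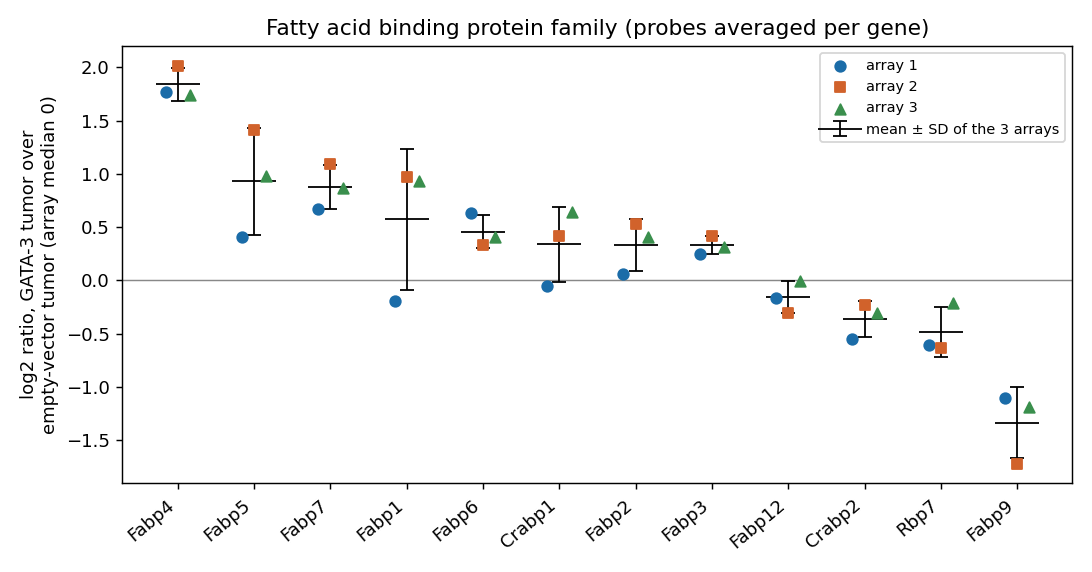
Log2 ratio (vertical axis) of Fabp4 and 11 family members (horizontal axis, ordered by mean, probes averaged per gene) on arrays 1 to 3 (symbols), with the mean ± SD as black bars. Fabp4 (1.84), picked for its high ratio, is highest and Fabp9 (-1.34) lowest.

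By Euclidean distance over the 3 arrays, the 5 named genes closest to Fabp4's profile were Slc16a12 (0.28), Smim3 (0.31), Cd2ap (0.33), St8sia6 (0.33) and Vmn1r228 (0.34), the distances being in log2 units. None is one of the adipocyte genes followed here. Fabp4 was picked for its high ratio and the next member, Retn, lay 0.97 lower in mean, so nothing is read from this. Only 1 of these 5 was among the 5 closest without array 1, against 4 without array 2 and 3 without array 3.

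Genes of related pathways are given next from lists of 231 genes, 194 of them measured. Among the 194, 117 passed (60.3%), 48 positive (24.7%) and 69 negative (35.6%). Among all named genes 57.9% passed, 32.1% positive and 25.7% negative, so a share near these is not a result about a list. Here rose and fell mean past the threshold of 0.05 for limma's adjusted p. The count was 72 without array 2 and 55 without array 3.

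Transcription factors and coactivators of fat cell formation went both ways, with 4 of 20 higher and 5 lower. Cebpb, an early factor of adipogenesis, gave -1.58, -1.66 and -1.07, a mean of -1.44 ± 0.32 (limma, adjusted p = 0.00307). Srebf1, which drives lipogenic genes, rose by 0.93 ± 0.16, and Rxra, the partner of PPARγ, by 0.50 ± 0.04. Cebpa, which maintains the mature state, gave -0.24 ± 0.19 with both probes negative and did not pass (adjusted p = 0.0958). Leaving out array 1, Cebpa passed on the negative side. Genes known to restrain adipogenesis counted 4 higher and 6 lower of 13. Gata3, the gene carried by the virus, gave 0.74, 0.86 and 0.79, positive on every array, with a mean of 0.80 ± 0.06. Gata2, another GATA factor of preadipocytes, gave -0.16 ± 0.03 (adjusted p = 0.137), and Ctnnb1 (β-catenin) fell to -0.96 ± 0.32. Without array 3, Rxra lost the call (0.47, limma, adjusted p = 0.0649), the first list counted 2 higher and 3 lower, and the second 2 and 4; without array 2 the counts were 3 and 3, and 3 and 4. Without array 1 the first list counted 6 and 8.

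Around Lpl, genes of fatty acid uptake counted 5 higher and 3 lower of 16. Cd36, the fatty acid translocase, gave 0.20 ± 0.11 (limma, adjusted p = 0.0979). Gpihbp1, which holds the lipase on capillaries, had probes at 0.07 and -0.72 and a mean of -0.32 ± 0.27 (adjusted p = 0.0778). Leaving out array 1, Gpihbp1 passed on the negative side. Angptl4, an inhibitor of the lipase, was at -0.31 ± 0.14 with both probes negative, and Lmf1, which matures the lipase, at -0.54 ± 0.29. Acsl3, an acyl-CoA synthetase, had the highest ratio of the list, 0.96 ± 0.16. Angptl4 lost the call on leaving out any 1 array (limma, adjusted p = 0.0555, 0.19 and 0.106 without arrays 1, 2 and 3), and Lmf1 without array 2 (-0.40, adjusted p = 0.0758). Without array 2 the list counted 5 and 0, and without array 3 it counted 3 and 1.

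Around Plin1 and Cidec, droplet and lipolysis genes counted 5 higher and 9 lower of 19. Plin2, the perilipin of most cell types, gave -1.24, -1.23 and -0.82, a mean of -1.10 ± 0.24, and Plin5, that of oxidative tissue, gave -1.11 ± 0.34. Plin4, a perilipin abundant in adipocytes, rose by 0.35 ± 0.07. Bscl2 (seipin), needed for droplet formation, rose by 0.96 ± 0.04, the highest of the list. Of the lipases, Lipe (hormone-sensitive lipase) was at -0.39 ± 0.17 and passed, and Pnpla2 (adipose triglyceride lipase), all 3 probes negative, was at -0.15 ± 0.12 and did not (limma, adjusted p = 0.202). Lipe and Plin4 lost the call without array 2 (-0.29, adjusted p = 0.119, and 0.34, adjusted p = 0.0822) and without array 3 (-0.41, 0.117, and 0.32, 0.148). The list counted 3 and 5 without array 2 and 2 and 6 without array 3.

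Around Thrsp, genes of fatty acid and triglyceride synthesis counted 6 higher and 6 lower of 21. Mid1ip1, the close relative of Thrsp, gave 0.37, 0.71 and 0.63, a mean of 0.57 ± 0.18, positive where Thrsp was negative on every array. Scd1, the stearoyl-CoA desaturase, fell to -1.26 ± 0.39. Pck1, which supplies glycerol backbone in fat cells, rose by 0.61 ± 0.12 with both probes positive. Fasn, the fatty acid synthase, gave 0.59, -0.27 and -0.15, so that array 1 and the other arrays had opposite signs, and Dgat2, the last step of triglyceride synthesis, gave -0.09 ± 0.21. Mid1ip1 lost the call without array 3 (0.54, limma, adjusted p = 0.0676). The list counted 3 and 3 without array 2, and 1 and 3 without array 3.

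Among adipokine receptors and further adipokines 3 of 15 rose and 6 fell. The leptin receptor Lepr rose by 0.65 ± 0.11, its 3 probes lying between 0.54 and 0.86. The adiponectin receptors Adipor1 (-0.31 ± 0.15) and Adipor2 (-0.41 ± 0.06) fell, as did Sfrp5, a secreted Wnt antagonist (-0.60 ± 0.20). Rbp4, the retinol carrier of plasma, gave 0.19, 1.70 and 1.06, a low value on array 1 and high values on the others. Adipor1 lost the call on leaving out any 1 array (limma, adjusted p = 0.0792, 0.137 and 0.106 without arrays 1, 2 and 3), Adipor2 without array 3 (-0.38, 0.102), and Rbp4 without array 2 (0.63, 0.0721) or array 3 (0.94, 0.124). The list counted 2 and 2 without array 2, and 2 and 1 without array 3.

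In the alternative complement pathway, where adipsin acts, 1 of 6 measured genes rose, the protease Cfi (0.48 ± 0.18). Limma called 0 lower, with 3 negative genes at an unadjusted p under 0.05. The test without borrowed variance called 0 genes across all the lists, so its 0 here adds nothing. Limma's count lower depended on the centring and scaling, being 3 with the values as deposited and 1 with scaled arrays. Cfb, the substrate of adipsin, gave -0.29 ± 0.18 (limma, adjusted p = 0.0549). With the values as deposited, Cfb passed on the negative side. Cfi lost the call without array 3 (0.53, adjusted p = 0.0669). Of insulin response genes 1 of 10 rose, Slc2a4, the insulin-responsive glucose transporter (0.27 ± 0.10), and 4 fell, Igf1r reaching -1.16 ± 0.31. Slc2a4 lost the call without array 2 (0.24, 0.188), without array 3 (0.23, 0.26), with the values as deposited (0.22, 0.0763) and with each probe on its own (0.27, 0.0513). The complement list counted 2 higher and 1 lower without array 1 and 0 and 0 without array 3, and the insulin list 0 and 3 without array 2 or array 3. Of genes of thermogenic fat 5 of 13 rose and 3 fell. Ucp1, the uncoupling protein of brown fat, gave -0.09 ± 0.19 (limma, adjusted p = 0.464), Ppargc1a, a coactivator of thermogenic genes, rose by 1.01 ± 0.16, and Cox7a1 fell to -0.56 ± 0.08 (-0.52, adjusted p = 0.0544, without array 3). The thermogenic list counted 4 and 1 without array 2, and 4 and 0 without array 3.

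Markers of other cells that a tumor in a fat pad can hold passed the test in 64.3% (endothelial), 75.0% (macrophage), 58.3% (fibroblast and progenitor) and 75.0% (epithelial) of the genes measured, beside 57.9% of all named genes. By direction, 32.1% of all named genes passed on the positive side and 25.7% on the negative. The markers gave 35.7% and 28.6% (endothelial), 25.0% and 50.0% (macrophage), 0.0% and 58.3% (fibroblast), and 16.7% and 58.3% (epithelial). Endothelial genes counted 5 higher and 4 lower of 14, with the receptor Kdr at 1.05 ± 0.40 and Plvap at -0.86 ± 0.07. Macrophage genes counted 3 higher and 6 lower of 12, with Cd86 at 0.70 ± 0.06 and the myeloid factor Spi1 at -1.58 ± 0.42. Fibroblast and progenitor genes counted 7 lower of 12, Col1a1 reaching -1.22 ± 0.29. Limma called 0 higher, with 0 positive genes at an unadjusted p under 0.05. The test without borrowed variance also called 0, as it did across all the lists, so its 0 here adds nothing. Epithelial genes counted 2 higher and 7 lower of 12, with Cdh1 at 0.80 ± 0.05 and Krt18 at -1.24 ± 0.20. Endothelium and macrophages are cells in which Fabp4 is also known. The median ratios of their markers were -0.05 and -0.20 (the latter -0.05 without array 1). Fabp4 was picked for its high ratio, so nothing is read from its distance to these medians. Marker levels cannot be had from ratios, and the part of any of these cells in the ratios of the adipocyte genes was not tested. Without array 3 the counts higher and lower were 2 and 1 (endothelial), 1 and 3 (macrophage), 0 and 1 (fibroblast) and 1 and 6 (epithelial). Without array 2 they were 4 and 1, 2 and 3, 0 and 4, and 2 and 7.

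**Figure D5:**
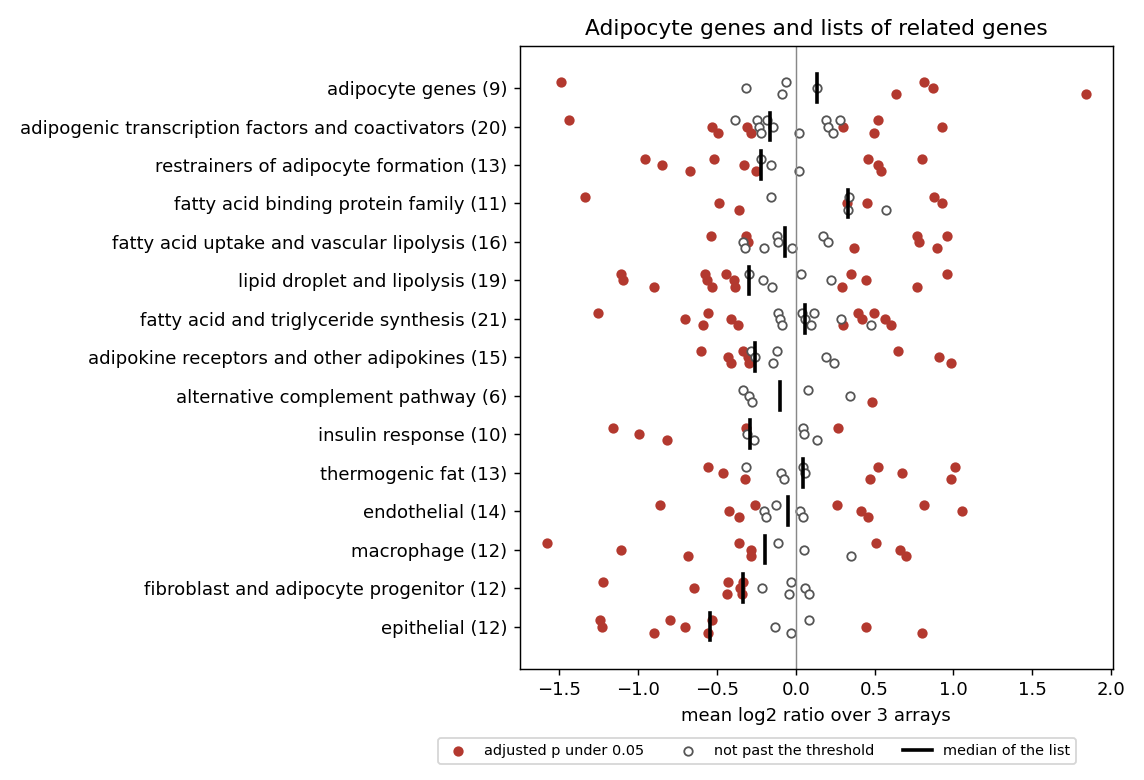
Mean log2 ratio over 3 arrays (horizontal axis) of each measured gene of the adipocyte set and of the 14 related lists (rows, number of genes in brackets); red points passed limma's adjusted p under 0.05, open points did not, and black bars are medians. Every row but those of the complement and fibroblast genes holds passing genes on both sides of 0. No gene of the lists reaches Fabp4 (1.84), which was picked for its high ratio, so nothing is read from this.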

How the data were processed

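The authors deposited log ratios of the channels, read here as log2 values. Scanner, background correction, normalization and log base are not given in the labels or the table used here. Channel intensities were not used, so brightness and saturation of a probe are unknown, and the number of arrays limits the precision. Array medians as deposited were -0.022, -0.071 and -0.069; the median of an array was subtracted from it. Probes were named by the platform annotation (22973 of 38976 rows with 1 symbol) and averaged per gene, and unnamed probes were kept. A single row, 1 in all, lacked a value on an array and fell out, leaving 31059. An intercept-only fit in limma 3.58.1 (R 4.3.3) with eBayes tested each mean against 0. Adjusted p-values (Benjamini-Hochberg, all rows) under 0.05 passed; p-values measure only the spread between these 3 arrays, which may be technical. The fit was also run on simulated data with independent noise at the SD of each row and few changed rows. Such data hold no dye bias, and no call rests on that run.

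The 10 genes and the lists of related genes were chosen with earlier results of these data known. Named were the 10 genes, 26 genes fixed by name (Acsl1 and C3 had no row under these symbols), the binding protein family, the highest and lowest passing gene of 1 sign in each other list, and the 5 profiles nearest to Fabp4. Alternatives covered centring, scaling, the summary of probes, the variance prior, the threshold and each array left out. Promoter windows are from RefSeq (GRCm38.p6).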

Additional observations from a re-analysis of the deposited data

How the results depend on the processing

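The count of 17340 rows past the threshold moved by less than 1.5 times with scaled arrays, the values as deposited, median probes, each probe on its own, a robust eBayes and an adjusted p under 0.10. It was 2289 with a mean of at least 1 in size and 4 in a test per row without borrowed variance, and 8500 (without array 3) to 19745 (without array 1) with 1 array left out. For the adipocyte genes the count of 5 became 2 and 0 under the size rule and that test, and 4 to 5 with 1 array left out, Lep being lost without array 2 or array 3. With each probe on its own it was 6, as the Pparg probe with a positive mean then passed. For the lists the count of 117 became 13 and 0, and 55 to 128; it was 205 with each probe counted on its own, which counts probes and not genes. The median of the adipocyte genes, 0.14, was -0.0398 with the median of a gene's probes and -0.0625 with each probe on its own, by the Pparg probes alone, and 0.03 to 0.27 with 1 array left out. Of the 5 profiles nearest to Fabp4, 1 to 4 remained with 1 array left out, an alternative chosen after seeing the data, as were those for the other named genes. Of 45 passing named genes outside the set, 28 kept the call under the other centring, scaling, probe summaries, robust eBayes and each array left out (5 of the 45, with several probes, had no value for each probe on its own). All 45 lost it in the test without borrowed variance, and 16 of 45 had a mean of at least 1 in size; 15 lost it without array 3, 10 without array 2 and 2 without array 1. Of the named genes outside the set that did not pass, 5 passed without array 1: Cebpa, Gpihbp1, Fabp1, Fabp2 and Crabp1. With the values as deposited 1 passed (Cfb), and without array 2 or array 3 the number was 0. No called gene named here turned its sign under the alternatives run. No paired analysis was possible because the arrays form 1 group, each pair of tumors being combined in a ratio.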
